A study of Homo sapiens with 6 samples.

Results

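The genes described here encode the protein-folding machinery of the endoplasmic reticulum (ER) and the unfolded protein response, the signalling that adjusts that machinery to its load. They were a list of 38 gene symbols, chosen with earlier results of these data known, and all 38 were found among the 25987 genes with a symbol in the count table. RNA-seq had been done on 6 cultures of 786-O, an established human renal cell carcinoma line, labelled wild type. In 3 cultures the cells were adapted to copper by growth in medium whose serum had been preloaded with CuSO4 in the cold overnight, at 30 uM per the series text (30, 31 and 32 uM in the labels of replicates 1, 2 and 3). The 3 control cultures received serum handled alike but with no copper. All 6 grew in DMEM/F12 with serum, and the labels do not give the length of the adaptation or say whether the 3 cultures of a group were adapted separately, so p-values measure the spread between these cultures, which may be technical.

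Nascent secreted and membrane proteins enter the ER through the SEC61 channel, are folded there by chaperones such as BiP (gene HSPA5) and GRP94 (HSP90B1) and by disulfide isomerases, and are sent back to the cytosol for destruction when folding fails. When unfolded protein builds up, the membrane sensors IRE1 (ERN1), PERK (EIF2AK3) and ATF6 are released to signal. IRE1 splices XBP1 mRNA, ATF6 is cut in the Golgi by the site-1 and site-2 proteases, and PERK phosphorylates eIF2 to slow translation. Spliced XBP1 and cut ATF6 then raise transcription of chaperone and degradation genes, so the mRNA of HSPA5, SDF2L1, CRELD2 or HERPUD1 is commonly read as a gauge of ER stress. Gene-level counts do not separate spliced from unspliced XBP1.

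Copper libraries totalled 16301772 to 18189469 counts and control libraries 19219090 to 25079913, so depth did not overlap between the groups. Of the genes with a symbol, 12944 passed the filter on low counts, all 38 ER genes (the members) among them. Replicate 3 of both groups stood apart: on the leading principal component, with 57.9% of the variance, copper replicate 3 lay at 41.2 and control replicate 3 at 17.6, with the other 4 libraries between -17.6 and -11.7. As a check on the labels, MT2A, a metallothionein that binds copper and zinc, was at 631, 724 and 803 CPM (counts scaled to library size) in copper against 328, 349 and 351 in control, without overlap (edgeR's adjusted p 0.0843 without and 0.00516 with the replicate number as a block). The 6 markers listed for a renal carcinoma line were present in every library. PAX8 was from 123 to 147 and VIM from 2763 to 3788 CPM. KRT8 was from 425.1 to 596.8, KRT18 from 188.6 to 275.9 and PAX2, the lowest, from 5.63 to 9.01 CPM. CDH6 was lowest in replicate 3 of both groups, at 90.8 CPM in copper and 120.7 in control, with at least 197.9 in the other libraries. The 8 markers of leukocytes, endothelium, liver, glia and germ cells summed to 0.971 to 1.40 CPM in copper and 0.539 to 1.36 CPM in control, and none was at 0 in all libraries.

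Promoters of these genes were searched for letters that match the binding site of the response. The ER stress element, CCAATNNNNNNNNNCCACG, pairs a CCAAT box for the factor NF-Y with a CCACG bound by ATF6 or XBP1, and a second form, ATTGGNCCACG, has its 2 boxes closer together. Both were searched on both strands, from 250 bases before to 50 after each start, in RefSeq promoters of GRCh38.p14, which gave a window for 34 of the 38 genes (all but DERL1, DERL3, PDIA3 and SEC24D). The first form was in 7 of the 34 genes (20.6%) and the second in 3 others (8.82%). Over all 27305 genes with a window, the 34 included, the counts were 25 (0.0916%) and 19 (0.0696%). Matches to the 2 forms did not overlap in any of these genes. Only exact matches were counted, so a promoter with a near match alone counts as having none. A match is a description of the letters and not a measured site. The 250 bases before the start follow for 5 genes, those of the major chaperones BiP, GRP94 and HYOU1, of the factor XBP1 and of HERPUD1, with the element in capitals.
HSPA5: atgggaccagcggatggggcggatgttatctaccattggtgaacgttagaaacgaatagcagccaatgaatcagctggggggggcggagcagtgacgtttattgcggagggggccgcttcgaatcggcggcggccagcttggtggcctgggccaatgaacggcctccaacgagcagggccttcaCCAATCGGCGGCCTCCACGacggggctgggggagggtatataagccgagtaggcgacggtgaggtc
HSP90B1: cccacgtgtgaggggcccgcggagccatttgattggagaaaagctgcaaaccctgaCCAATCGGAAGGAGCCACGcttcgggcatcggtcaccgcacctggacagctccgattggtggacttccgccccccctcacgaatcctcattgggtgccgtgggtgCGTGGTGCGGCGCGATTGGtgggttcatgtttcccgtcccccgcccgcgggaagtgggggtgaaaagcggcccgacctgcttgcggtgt
XBP1: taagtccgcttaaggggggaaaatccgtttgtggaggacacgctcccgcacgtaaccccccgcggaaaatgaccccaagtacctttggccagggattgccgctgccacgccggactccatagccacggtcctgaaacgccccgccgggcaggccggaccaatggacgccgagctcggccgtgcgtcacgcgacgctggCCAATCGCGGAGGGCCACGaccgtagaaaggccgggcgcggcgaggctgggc
HYOU1: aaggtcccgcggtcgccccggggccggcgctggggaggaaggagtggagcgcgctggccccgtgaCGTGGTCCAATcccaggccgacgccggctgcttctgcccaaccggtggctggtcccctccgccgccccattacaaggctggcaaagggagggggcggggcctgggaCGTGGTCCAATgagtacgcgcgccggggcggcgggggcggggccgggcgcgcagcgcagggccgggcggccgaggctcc
HERPUD1: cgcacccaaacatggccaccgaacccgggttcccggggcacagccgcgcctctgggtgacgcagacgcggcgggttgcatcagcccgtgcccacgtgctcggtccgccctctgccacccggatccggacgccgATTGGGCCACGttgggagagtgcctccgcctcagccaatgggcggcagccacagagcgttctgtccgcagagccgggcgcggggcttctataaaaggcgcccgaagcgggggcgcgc
They run 5′ to 3′ on each gene's strand, at chr9:125241344-125241593 (minus), chr12:103930160-103930409 (plus), chr22:28800570-28800819 (minus), chr11:119057206-119057455 (minus) and chr16:56931892-56932141 (plus). The exact match of HSPA5 lies from -66 to -48 relative to the start, and that of XBP1 from -52 to -34. HSP90B1 has a pair, at -194 to -176 and, on the other strand, -89 to -71. HYOU1 has the second form on the other strand at -185 to -175 and -79 to -69, and HERPUD1 has it at -117 to -107. The other 5 genes with an element were CANX (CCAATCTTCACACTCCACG), PDIA6 (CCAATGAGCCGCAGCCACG), CALR (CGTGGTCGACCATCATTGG), CRELD2 (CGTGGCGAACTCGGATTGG) and SDF2L1 (CGTGGACCAAT), of which the last 3 are on the other strand.

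No gene of the 38 passed the test between copper and control. By edgeR's quasi-likelihood test, with p adjusted over all genes by the Benjamini-Hochberg method, 0 of 38 were called, as were 0% of the 12944 genes tested. At an unadjusted p under 0.05 the count was also 0 of 38, where 3.52% of all tested genes passed. DESeq2 called 0 of 38 beside 27 genes in all, 0.118% of the 22806 genes with a count, and 0 of 38 had an unadjusted p under 0.05, against 1.99% of those genes. When the replicate number was added as a block, edgeR called 22 genes, 0.17% of those tested, and 0 of the 38, whose smallest adjusted p was 0.50. Without replicate 3 of both groups edgeR called 111 genes (0.856% of 12966) and without copper replicate 3 it called 15 (0.115% of 13100), with 0 of the 38 in each. The interval of each fold change shows how large a change the data leave room for. In 33 of 38 genes the 95% interval, not adjusted for the number of genes, lay inside 1.5-fold in either direction, against 65.6% of all tested genes. That gap, 86.8% of members against 65.6%, went largely with expression. Among genes at or above the lower quartile of the members' mean CPM the shares were 25 of 28 members (89.3%) and 87% of all. All 38 intervals lay inside 2-fold, against 90.6% of tested genes. The 5 that reached past 1.5-fold were CREB3L2, PPP1R15A, SEL1L, SYVN1 and DERL3. With the block the interval was inside 1.5-fold for 37 of 38 genes, all but DERL3, against 79.9% of tested genes.

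**Figure D1:**
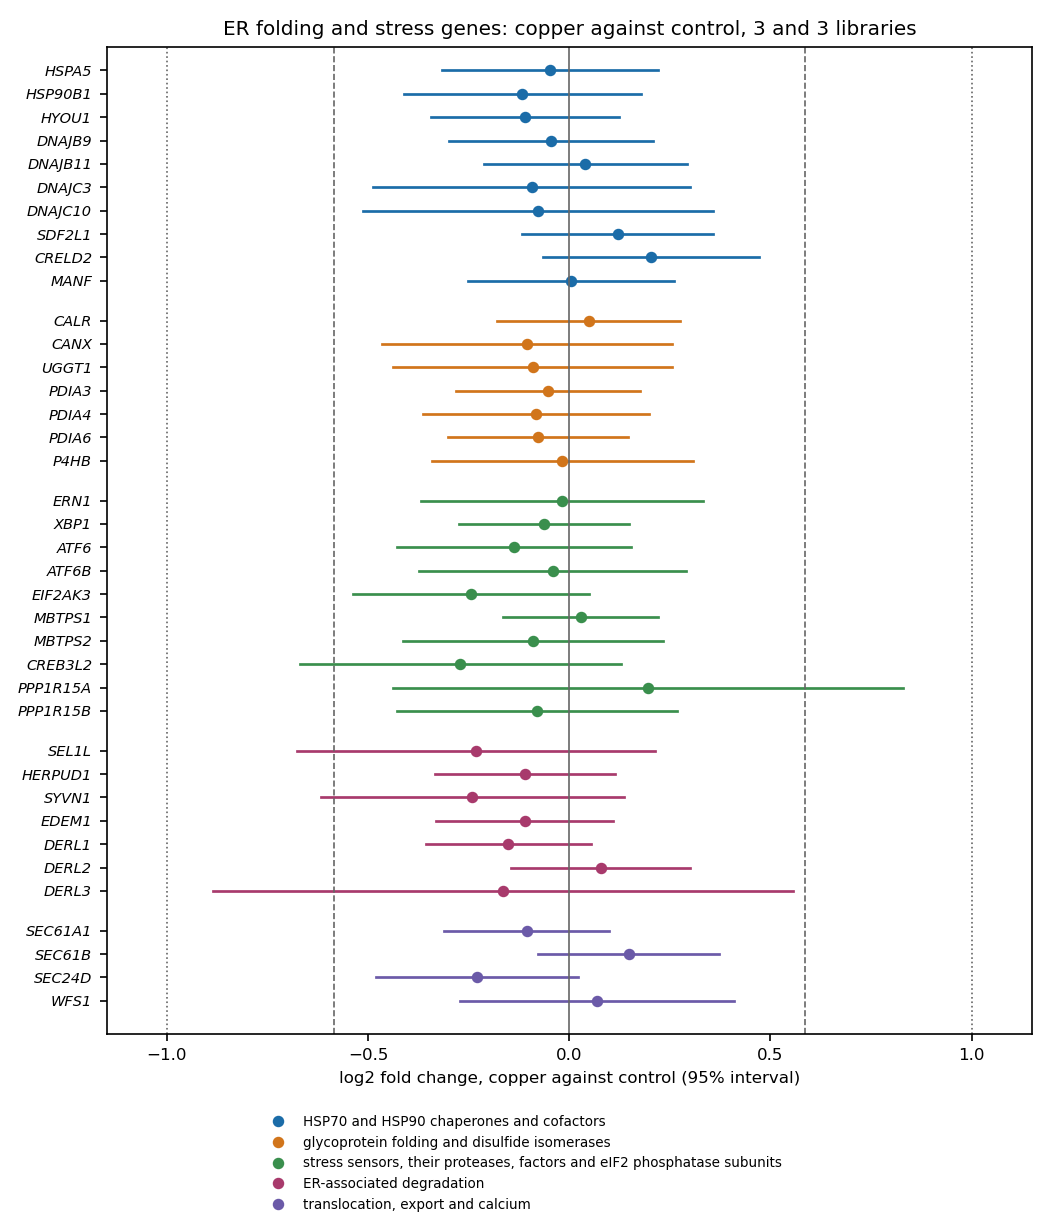
Log2 fold change of each of the 38 genes, copper against control (points), with its 95% interval from edgeR's quasi-likelihood fit (lines), 3 libraries a group, coloured by role. Dashed lines mark 1.5-fold and dotted lines 2-fold. Points lie between -0.27 (CREB3L2) and 0.20 (CRELD2), and every interval crosses 0.

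The estimates leaned slightly below 0. The fold change was negative in 28 of 38 genes (73.7%), where 48.6% of all tested genes were negative, and the median log2 fold change was -0.08 against 0.0052 over all tested genes. In replicates 1, 2 and 3, the median of copper minus control over the 38 genes was -0.01, -0.03 and -0.16, so most of the lean of this median came from replicate 3. Without replicate 3 of both groups the median was -0.02. Copper was lower in all 3 replicate pairs for 15 genes (39.5%, against 17% of tested genes) and higher in all 3 for 7 (18.4%, against 17.7%). Taken as a sum, the 38 genes made up 1.22% ± 0.0045 of counts in copper and 1.26% ± 0.047 in control (SD, n = 3). The groups overlapped, since control replicate 1, at 1.21%, lay with the copper libraries.

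Levels differed far more between genes than between conditions. Per kilobase of principal transcript, the highest control levels were those of CALR (643 ± 35.7 CPM per kb, SD, n = 3), HSP90B1 (589 ± 74.0), P4HB (426 ± 35.5), PDIA4 (333 ± 33.0), HSPA5 (321 ± 16.4) and CANX (291 ± 14.3). CALR and HSP90B1 did not differ beyond their spread, nor did PDIA4 and HSPA5. The lowest were ERN1 (1.53 ± 0.052) and DERL3 (2.18 ± 0.54). The other sensors were at 13.5 (EIF2AK3) and 16.9 (ATF6) CPM per kb, below the 6 most abundant genes named here, but DNAJB9, DNAJC3 and DNAJC10 of the chaperone group were at 12.8, 15.7 and 16.2. The value of DNAJC10 rests on a principal transcript of 20129 bases. Before division by length, DNAJC10 was at 325 CPM in control, ATF6 at 126 and EIF2AK3 at 62.8.

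The chaperone group holds the HSP70 and HSP90 proteins of the ER lumen with their helpers, and 6 of its 10 genes had a negative and 4 a positive fold change, with a median of -0.05 and 0 called. HSPA5 (Entrez 3309; chromosome 9, 125234853 to 125241343, minus strand), the HSP70 that also holds the stress sensors inactive, was at 1326, 1249 and 1063 CPM in copper replicates 1, 2 and 3 and at 1250, 1320 and 1192 in control. The groups overlapped, with copper replicate 1 the highest library and copper replicate 3 the lowest. Its log2 fold change was -0.05 (SE 0.12), and the 95% interval ran from 0.80-fold to 1.16-fold. HSP90B1 (Entrez 7184; chromosome 12, 103930410 to 103947926), the HSP90 of the ER, was at 1437, 1525 and 1695 CPM in copper and 1500, 1634 and 1914 in control. It was highest in replicate 3 of each group and lower in copper within each replicate, with a log2 fold change of -0.12 (SE 0.13). HYOU1, a large HSP70-like exchange factor for BiP, was at 233, 245 and 227 CPM in copper and 227, 271 and 262 in control, overlapping.

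Among the co-chaperones of BiP, DNAJB9, which restrains IRE1 and is a target of XBP1, was at 33.7, 35.8 and 31.9 CPM in copper and 32.7, 33.0 and 38.9 in control. DNAJB11 had a log2 fold change of 0.04 (SE 0.11). DNAJC3, which like DNAJB11 helps BiP bind clients, and the disulfide reductase DNAJC10 had values of -0.09 (SE 0.17) and -0.08 (SE 0.19). DNAJC10 was at 338, 367 and 219 CPM in copper and 334, 338 and 304 in control, and copper replicate 3 was the lowest library for both DNAJC10 and DNAJC3. Without copper replicate 3 the log2 fold changes of DNAJC3 and DNAJC10 were 0.08 and 0.12.

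SDF2L1, CRELD2 and MANF complete the chaperone group. SDF2L1, a component of BiP complexes, was at 22.1, 22.3 and 19.9 CPM in copper and 19.8, 20.2 and 19.0 in control. CRELD2, a secreted ER stress-responsive protein with isomerase-like activity, had the largest positive value of the 38 genes, 48.8, 46.6 and 57.0 CPM in copper against 40.3, 45.1 and 47.1 in control. Copper exceeded control within every replicate for both genes, but the groups overlapped. Their log2 fold changes were 0.12 (SE 0.10) and 0.20 (SE 0.12), with upper bounds of 1.28-fold and 1.39-fold. MANF, a secreted BiP-binding factor, was at 84.8, 75.6 and 95.7 CPM in copper and 82.0, 84.5 and 88.7 in control, a log2 fold change of 0.01 (SE 0.11).

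**Figure D2:**
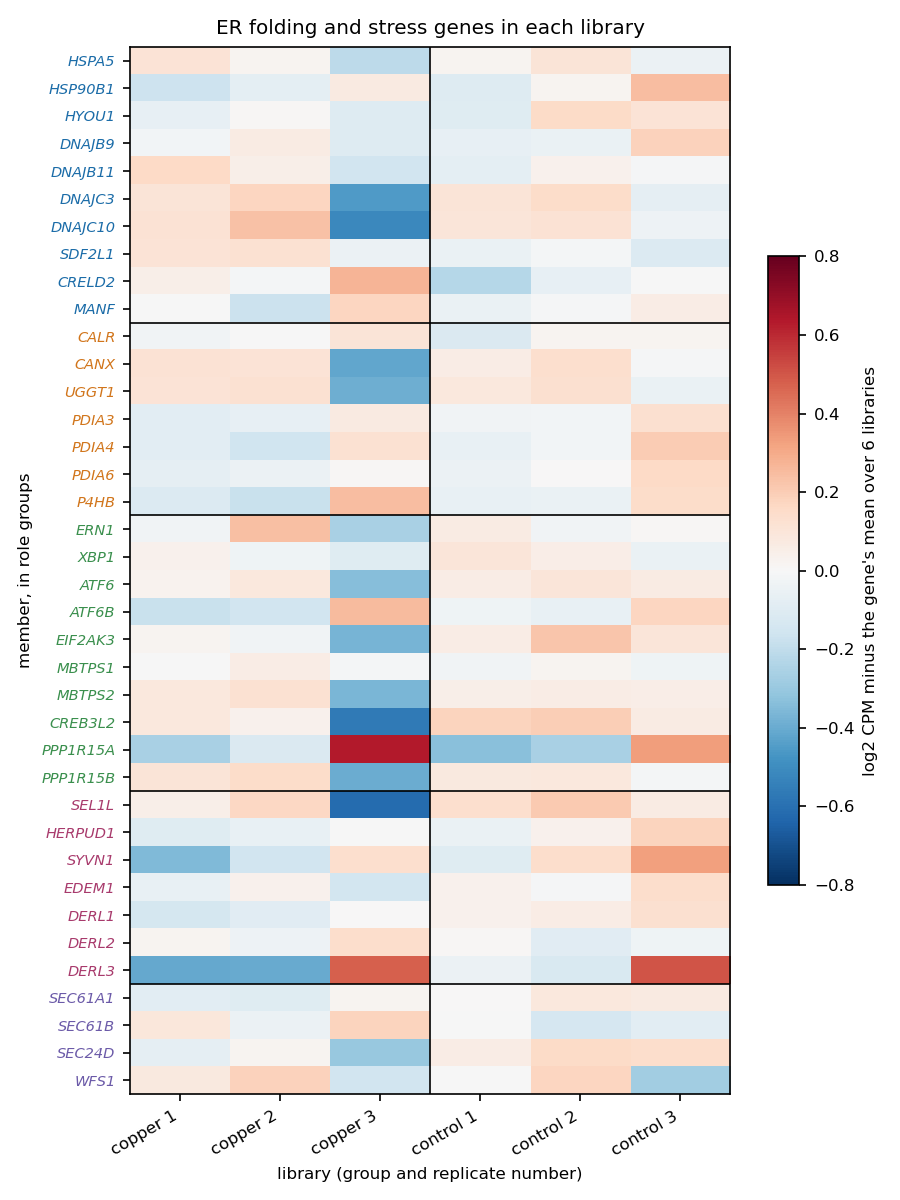
Log2 CPM of each of the 38 genes in each library, minus the gene's mean over the 6 libraries, with copper libraries on the left, control libraries on the right and role groups parted by lines. The strongest colours are in copper replicate 3, which is the lowest library for 18 genes, SEL1L, CREB3L2 and DNAJC10 among them, and the highest for 8, with PPP1R15A deepest.

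In the glycoprotein-folding and isomerase group, 6 of 7 genes had a negative fold change, with a median of -0.08 and 0 called. Calreticulin (CALR), the soluble lectin that binds monoglucosylated glycoproteins, was at 1219, 1241 and 1335 CPM in copper and 1145, 1261 and 1264 in control. Its membrane-bound relative calnexin (CANX) was at 1284, 1279 and 890.1 CPM in copper and 1234, 1301 and 1180 in control. The pair parted in copper replicate 3, the highest library for CALR and the lowest for CANX. UGGT1, which re-tags misfolded glycoproteins for another round with the lectins, followed CANX at 290.4, 293 and 206 CPM in copper and 286, 295 and 260.2 in control. The 4 isomerases, which form and rearrange disulfide bonds, had log2 fold changes of -0.05 for PDIA3 (SE 0.10), -0.08 for PDIA4 (SE 0.12), -0.08 for PDIA6 (SE 0.10) and -0.02 for P4HB (SE 0.14). All 4 were highest in replicate 3 of their group. P4HB, which is also the beta subunit of collagen prolyl 4-hydroxylase, was at 1015, 970.2 and 1301 CPM in copper and 1052, 1058 and 1215 in control.

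Among the sensors, their proteases and factors and the eIF2 phosphatase subunits, 8 of 10 genes had a negative fold change, with a median of -0.07 and 0 called. XBP1 (Entrez 7494; chromosome 22, 28794560 to 28800572, minus strand), whose own promoter holds the element shown above, was at 253, 242 and 231 CPM in copper and 264, 257 and 238 in control. Copper was lower within each replicate by little, for a log2 fold change of -0.06 (SE 0.09) and an interval from 0.83-fold to 1.11-fold. ERN1, the IRE1 sensor that splices XBP1, was at 11.6, 14.1 and 9.93 CPM in copper and 12.5, 11.7 and 11.9 in control, overlapping. ATF6 had a log2 fold change of -0.14 (SE 0.12) and its relative ATF6B one of -0.04 (SE 0.14). Of the proteases that cut ATF6, MBTPS1 was level, at 197, 206 and 196 CPM in copper and 193, 201 and 193 in control. MBTPS2 was within 51.6 to 54.4 CPM in 5 libraries but at 38.8 in copper replicate 3. Its log2 fold change was -0.09 (SE 0.14).

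EIF2AK3, the PERK kinase, was 1 of 3 genes whose groups did not overlap, all 3 lower in copper (7.89% of members, against 5.35% of tested genes; in the higher direction 0 of 38, against 5.45%). It was at 58.3, 56.4 and 44.4 CPM in copper and 59.9, 66.9 and 61.6 in control. The gap between the nearest libraries of the groups was small, and the log2 fold change was -0.24 (SE 0.13). The unadjusted p of EIF2AK3 was 0.0907, or 0.0409 in the blocked fit, and edgeR's adjusted p was 1.00 and 0.58. Without copper replicate 3 the log2 fold change was -0.13. CREB3L2, a membrane-bound transcription factor processed like ATF6 that drives secretory genes, had the lowest value of the 38 genes, -0.27 (SE 0.17). It was at 464, 449 and 296 CPM in copper and 496, 503 and 459 in control. The 2 groups overlapped by a narrow margin, and without copper replicate 3 the log2 fold change was -0.09.

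The regulatory subunits of the phosphatase that reverses eIF2 phosphorylation had opposite extremes in replicate 3. PPP1R15A (GADD34), the stress-inducible subunit, was at 44.2, 48.8 and 81.9 CPM in copper and 41.9, 44.2 and 66.8 in control. Replicate 3 was the highest library of both groups. PPP1R15B, the constitutive subunit, was at 93.0, 95.7 and 65.7 CPM in copper and 91.5, 91.6 and 85.7 in control, lowest in replicate 3 of both groups. The log2 fold changes between copper and control were 0.20 (SE 0.27) and -0.08 (SE 0.15). PPP1R15A was also the 1 member of 38 (2.63%) that differed by replicate number, in edgeR's test of both replicate terms in the blocked model (adjusted p 0.0215), against 6.46% of all tested genes. Without copper replicate 3 its log2 fold change was -0.13, and without control replicate 3 it was 0.44.

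**Figure D3:**
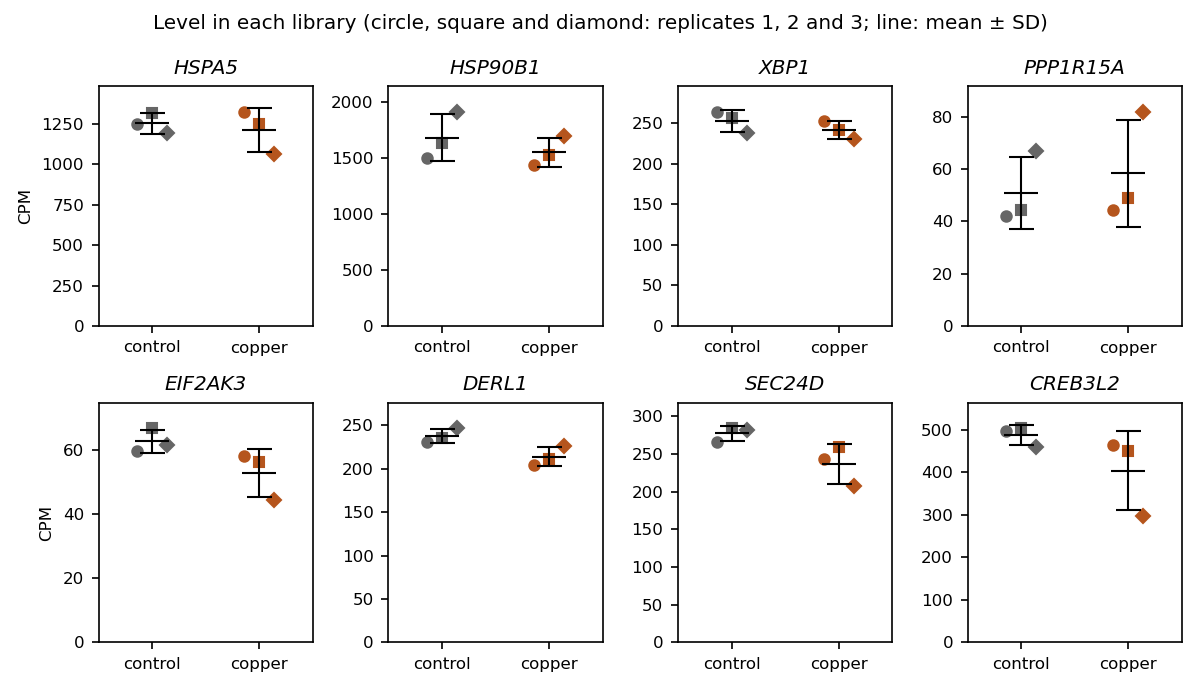
CPM of 8 of the genes in each library, with control in grey and copper in orange, replicates 1, 2 and 3 as circle, square and diamond, and the mean ± SD of 3 libraries as black bars; every axis starts at 0. EIF2AK3, DERL1 and SEC24D are the 3 genes whose groups do not overlap, and PPP1R15A is highest in replicate 3 of both groups.

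Genes of ER-associated degradation, the route that returns misfolded proteins to the proteasome, were negative in 6 of 7 cases, with a median of -0.15 and 0 called. The median of copper minus control over these 7 genes was -0.09, -0.09 and -0.18 in replicates 1, 2 and 3. DERL1, a membrane protein of the retrotranslocation complex, was at 205, 211 and 226 CPM in copper and 231, 235 and 247 in control, and these groups did not overlap. Its log2 fold change was -0.15 (SE 0.09), with copper lower by 0.18, 0.15 and 0.13 in replicates 1, 2 and 3, and edgeR's adjusted p was 1.00 without and 0.62 with the block. Its relative DERL2 had a value of 0.08 (SE 0.10). DERL3, a stress-inducible relative, was barely expressed: copper libraries had 21, 23 and 44 counts and control libraries 41, 32 and 46.

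The ligase SYVN1 (HRD1) and its partner SEL1L form the main degradation channel for lumenal proteins. SYVN1 was at 27.4, 31.5 and 38.5 CPM in copper and 32.7, 38.6 and 44.0 in control. It was highest in replicate 3 of each group and lower in copper within every replicate, and the log2 fold change was -0.24 (SE 0.16), and the unadjusted p was 0.176, or 0.0188 in the blocked fit. The adjusted p by edgeR was 1.00 and 0.50. SEL1L was at 129.6, 141 and 82.2 CPM in copper and 138, 145 and 131 in control, a log2 fold change of -0.23 (SE 0.19) that shrank to -0.03 without copper replicate 3. HERPUD1, a stress-induced adaptor of the same complex with the second form of the element in its promoter, was at 90.3, 92.4 and 96.3 CPM in copper and 93.2, 98.7 and 109 in control. EDEM1, a mannosidase-like protein that hands glycoproteins to this route, had a log2 fold change of -0.11 (SE 0.09).

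In the last group SEC24D, a cargo adaptor of the COPII coat that carries folded proteins out of the ER, was the third gene whose groups did not overlap. It was at 244, 259 and 207 CPM in copper and 266, 284 and 282 in control, with a log2 fold change of -0.23 (SE 0.11). Its unadjusted p, 0.0686, was the smallest of the 38 without the block (by that fit, 1.59% of tested genes were lower in copper at an unadjusted p under 0.05). With the block it was 0.0348, with an adjusted p by edgeR of 0.57, and without copper replicate 3 the log2 fold change was -0.14. The channel subunits had values of opposite sign, -0.11 (SE 0.09) for SEC61A1, which forms the pore, and 0.15 (SE 0.10) for the small subunit SEC61B, which was at 125, 113 and 132 CPM in copper and 117, 107 and 110.3 in control. WFS1, an ER membrane glycoprotein linked to calcium balance and to ATF6 turnover, had a log2 fold change of 0.07 (SE 0.15). In the blocked fit 4 of the 38 genes had an unadjusted p under 0.05 (10.5%, against 8.41% of tested genes), and these were EIF2AK3, CREB3L2, SYVN1 and SEC24D, each with a negative fold change. That is 4 of 38 in the lower direction, against 4.24% of tested genes, and 0 of 38 in the higher, against 4.16%.

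Genes with and without an exact match to an ER stress element had like medians. The 10 genes that hold either form had a median log2 fold change of -0.07, from -0.12 (HSP90B1) to 0.20 (CRELD2), with 7 negative, 3 positive and 0 called. Over these 10 genes the widest bounds of the 95% intervals were 0.72-fold (CANX) and 1.39-fold (CRELD2). The 24 genes with a window and no match had a median of -0.08, with 17 negative and 7 positive. No test was made between these sets.

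The rest of the pathway, 103 further genes of ER chaperones, N-glycan processing, degradation, translocation, export and stress signalling found in the table, also held no called gene. Of these, 101 were tested, 48 with a positive and 53 with a negative fold change, a median of -0.01 and 0 called by edgeR with or without the block. At an unadjusted p under 0.05 there were 2 of 101 without the block, against 3.52% of all tested genes, and 8 with it (6 lower, 2 higher), against 8.41%. ATF4, the factor translated when PERK is active, was at 357, 325 and 319.8 CPM in copper and 359.6, 324 and 313 in control, and its log2 fold change was 0.01 (SE 0.10). DDIT3 (CHOP), its pro-death target, was at 12.2, 12.8 and 16.5 CPM in copper and 12.2, 12.3 and 16.6 in control. TRIB3 had a log2 fold change of 0.06 (SE 0.15), and ERO1A, the oxidase that recharges the isomerases, one of -0.06 (SE 0.10). In the same libraries HMOX1, the stress-induced heme oxygenase, was 1.09 higher in copper on the log2 scale (SE 0.17; adjusted p by edgeR 0.241 without and 0.00764 with the block), and MT2A was 1.07 higher (SE 0.11; 0.0843 and 0.00516).

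The 38 genes differed in their behaviour in replicate 3, which went with transcript length and with GC content. Copper replicate 3 was the lowest of the 6 libraries for 18 genes (47.4%, against 33.8% of tested genes) and the highest for 8 (21.1%, against 33.2%). Across the 38 genes, the difference between copper replicate 3 and the mean of copper replicates 1 and 2 had a Spearman correlation of -0.75 with the length of the principal transcript, and over 11738 tested genes with a length it was -0.44. In control the values were -0.52 and -0.18. With GC content of the transcript the correlations in copper were 0.60 over the 38 genes and 0.59 over all, and in control 0.34 and 0.21. These are descriptions across genes, which share the same libraries and are not independent replicates. SEL1L lay 0.72 below on the log2 scale in copper replicate 3 and DNAJC10 0.69 below, while PPP1R15A and DERL3 lay 0.82 and 0.84 above.

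**Figure D4:**
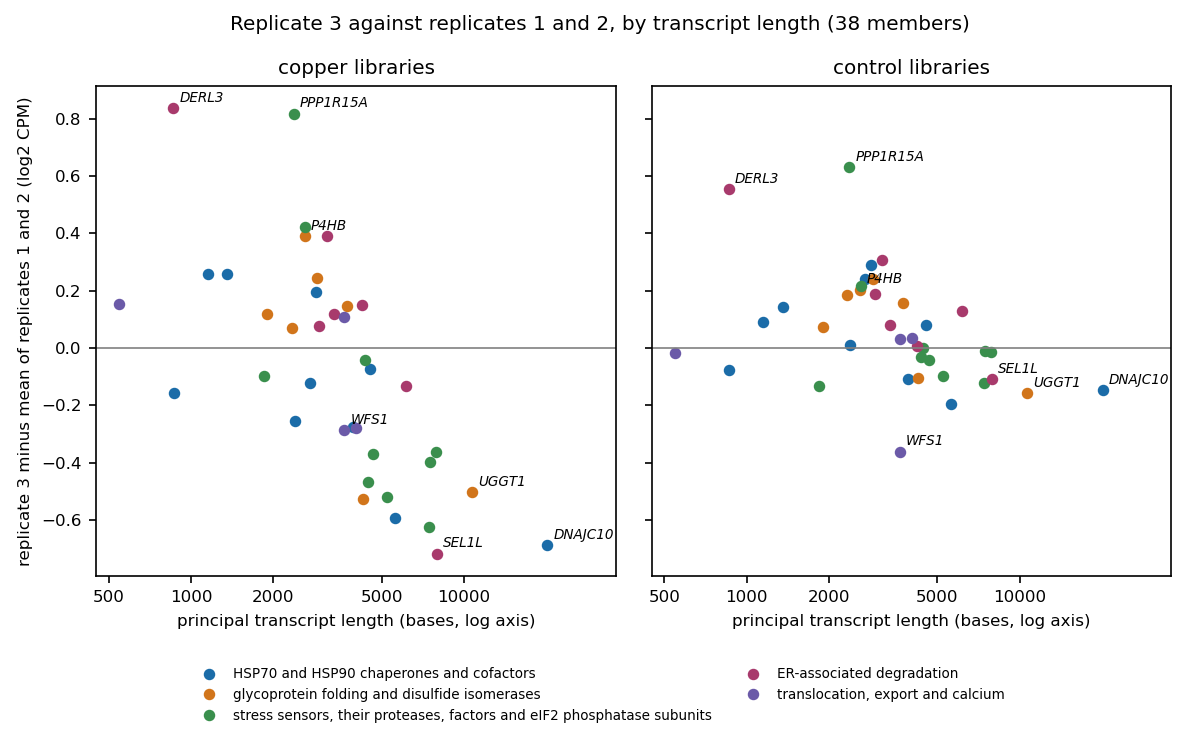
Difference of replicate 3 from the mean of replicates 1 and 2 in log2 CPM (vertical) against the length of the principal transcript in bases on a log axis (horizontal), for copper (left) and control (right) libraries, one point per gene coloured by role. SEL1L and DNAJC10, both long transcripts, lie lowest in copper, PPP1R15A and DERL3 lie highest in both panels, and the spread is smaller in control.

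The trend with length also ran through the copper comparison in replicate 3. The Spearman correlation of copper minus control with length over the 38 genes was -0.25 in replicate 1, 0.12 in replicate 2 and -0.76 in replicate 3. Over 11738 tested genes the same correlations were -0.08, -0.01 and -0.50. Of the 19 longer transcripts (3640 to 20129 bases), copper replicate 3 was the lowest library for 15, and of the 19 shorter ones (545 to 3635 bases) for 3. The median of copper minus control among the longer ones was 0.0078, -0.0084 and -0.38 in replicates 1, 2 and 3, and among the shorter ones it was -0.03, -0.09 and -0.04. The part of length, GC content or RNA quality in the values of EIF2AK3, SEC24D, CREB3L2 and SEL1L was not tested. In bulk RNA, a lower level per cell and fewer cells with the transcript cannot be told apart.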

How the data were processed

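RNA was extracted with an Ambion kit for miRNA isolation and made into strand-marking libraries (NEBNext Ultra II Directional), per the labels' protocols; whether poly(A) RNA was selected is not given in the sources used here. For the 6 libraries the authors deposited raw read counts per gene in 1 table, and the submitters' processing notes name STAR, FastQC, edgeR and GRCh38. The counting program, its use of strand and its treatment of reads matching several genes are not given in the sources used here. Genes without a symbol (5 of 25992, 0.000814% of counts) were left out. Starts in the table were raised by 1.

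The test was edgeR 4.0.16's robust quasi-likelihood test in R 4.3.3, on group alone, after filterByExpr (minimum count 10, total 15) and TMM scaling. Adjustment was by Benjamini-Hochberg over all 12944 genes, with calls under 0.05. The prior count for fold changes was 2. The SE is the fold change divided by the root of F, and 95% intervals use the fit's degrees of freedom. CPM use TMM library sizes. Depth per library limits precision through counting error, most for genes of few counts such as DERL3 (21 to 46 counts). The spread between cultures had a biological coefficient of variation of 15.4%, and 9.05% with the block. Over all tested genes, libraries within a group differed by more than counting error (chi-square per degree of freedom 5.40 to 66.0). Gene by gene, counting error was not compared with the spread between cultures. Lengths and GC content are those of the APPRIS principal transcript of GENCODE 29, the longest where several tied. The scripts were tested on simulated counts.

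Replicate numbers are in the labels of both groups. Same-numbered libraries deviated together across genes (r = 0.46, 0.40 and 0.65 for numbers 1, 2 and 3, all above the 0.1 set for pairing). Deviations were taken from each group's mean, so the outlying replicate 3 moves replicates 1 and 2 of both groups the same way. Copper 1 with control 2 (r = 0.32) and copper 2 with control 1 (r = 0.27) also passed 0.1. That limit thus cannot show whether numbers 1 and 2 were paired. The difference between replicates 1 and 2 correlated at only 0.15 between groups. Blocked values are given beside the unblocked ones where they matter. No libraries within a group agreed within sampling noise (chi-square per degree of freedom at least 5.40).

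The 38 genes, the role groups, the 104 further genes (103 found) and the marker lists were chosen with earlier results of these data known. The text names all 38 genes, ATF4, DDIT3, TRIB3, ERO1A and any further gene called with or without the block (0 genes), with MT2A and HMOX1 as a check. Alternatives were RLE and upper-quartile scaling, no filter, DESeq2 1.42.0, the replicate block, each library left out, and replicate 3 left out of both groups. A planned search of protein sequences was not run.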

Additional observations from a re-analysis of the deposited data

How the results depend on the processing

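Under all 12 alternatives 0 of the 38 genes were called, with adjusted p-values of at least 0.236, and their log2 fold changes stayed between -0.50 and 0.44. The median over the 38 genes was -0.08 and kept its sign, from -0.09 to -0.02 when libraries were left out. Over all genes the count, 0 as reported, became 22 with the replicate block, 27 by DESeq2, 12 if no filter was used, and from 0 to 111 when libraries were left out, with 15 without copper replicate 3 and 111 without replicate 3 of both groups. The replicate block changed no call among the 38 genes. The count differing by replicate number, 836, was 3109 with no filter. The cause of these differences was not tested.

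The log2 fold change changed sign in 41 of 456 results on the 38 genes, none of them called; the value as reported of these genes reached 0.20 in size (PPP1R15A). With upper-quartile scaling, which moved the median of all genes to 0.028 from 0.0052, P4HB was at 0.010 and ERN1 at 0.0012. MANF was at -0.014 with no filter, -0.0061 with DESeq2 and -0.00049 with the replicate block, and ATF4 at -0.014 with no filter and -0.0038 with DESeq2. When 1 library was left out, the values that changed sign ranged as follows: DNAJB11 (-0.034 to 0.12), P4HB (-0.16 to 0.059), ATF6B (-0.20 to 0.034), ATF4 (-0.045 to 0.064), WFS1 (-0.042 to 0.18), HSPA5 (-0.12 to 0.038), DNAJC3 (-0.21 to 0.078), DNAJC10 (-0.23 to 0.12), MANF (-0.085 to 0.081), CANX (-0.19 to 0.049), UGGT1 (-0.18 to 0.058), ERN1 (-0.16 to 0.096), MBTPS2 (-0.18 to 0.049), PPP1R15A (-0.13 to 0.44), PPP1R15B (-0.18 to 0.074), DDIT3 (-0.13 to 0.18), TRIB3 (-0.12 to 0.15), CALR (-0.00152 to 0.072), DNAJB9 (-0.093 to 0.038), PDIA3 (-0.10 to 0.000296), PDIA4 (-0.17 to 0.00101), DERL3 (-0.50 to 0.037), ERO1A (-0.11 to 0.022). Without replicate 3 of both groups the values of changed sign were 0.00252 for HSPA5, 0.079 for DNAJB9, 0.016 for DNAJC3, 0.070 for DNAJC10, -0.055 for MANF, 0.015 for CANX, 0.00698 for UGGT1, 0.091 for ERN1, 0.050 for MBTPS2, 0.043 for PPP1R15B, -0.00499 for ATF4, -0.100 for TRIB3 and 0.028 for ERO1A. The gene of lowest depth was DERL3, at 21 to 46 counts, with an SE of 0.31 without and 0.20 with the replicate block; the part of depth in its spread was not tested.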

Other observations

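The deposited positions of 3 of the 38 genes, HYOU1, CANX and ATF6B, carry the chromosome name that RefSeq gives but do not overlap the RefSeq gene. CANX, for example, is placed at 464521 to 497218 on chromosome 5, and RefSeq GRCh38.p14 has it at 179678656 to 179731641. Of 12889 tested genes matched to RefSeq on the same chromosome, 266 (2.06%) share this. Whether it affected their counts was not tested.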
